A study of Mus musculus with 2 samples.

Results

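Transcripts of the mitochondrial ribosome were followed in naïve CD8+ T cells with and without the transcription factor Bcl11b. The genes were taken by name: every non-control probe whose gene name in the array design begins with Mrpl or Mrps and a number, Mrpl for the large and Mrps for the small subunit. They came to 125 probes for 75 genes, 46 of the large and 29 of the small subunit, out of 41174 probes for 27599 genes. Both genotypes are on the C57BL/6 background. In the knockout, Bcl11bF/F/dLck-iCre, floxed Bcl11b is cut by an iCre recombinase under the distal Lck promoter, which acts late in T cell development. The comparison group was wild type; the labels give it no Cre, and they give neither the age of the mice nor how many gave each sample. Cells low for CD44 and CD25 were sorted, and their RNA was hybridised to 2 two-colour arrays. On each, Cy5 marked the RNA of knockout cells and Cy3 that of wild-type cells. The labels describe the arrays as biological replicates 1 and 2. Because the dyes run the same way on both, a dye effect and the deletion cannot be told apart.

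The mitochondrial ribosome translates the few messenger RNAs of the mitochondrial genome, which encode core subunits of the respiratory chain and ATP synthase. Its ribosomal RNAs come from the mitochondrial genome, but all of its proteins are encoded in the nucleus, made in the cytosol and imported. Some have counterparts in bacterial ribosomes and others are found only in mitochondrial ones. Naïve T cells are quiescent and enlarge their mitochondrial translation machinery when they are activated.

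The arrays differed in how many spots cleared the background and in the spread of their ratios. Bcl11b itself had log2 ratios of knockout over wild type of -1.45 on array 1 and -1.73 on array 2 by its brighter probe and -0.35 and -2.32 by the other; the mean of -1.59 ± 0.19 (SD, n = 2) missed the threshold in limma across all genes (adjusted p = 0.075) and passed under 2 of the 10 other settings tried. Some of those settings called 0 of all genes. Where the Bcl11b probes lie against the floxed exon was not examined. Per channel, 10739 to 17276 of 43379 gene spots cleared the background, and negative control spots had median signals of 985 to 1865 over median local backgrounds of 35 to 51.5. Such signal can pull ratios of dim genes towards 0, but its effect here was not tested. All 6 CD8 T cell markers looked for, among them Cd8a and Cd3e, were well above background in every channel. Of 4 markers of activated or memory T cells 3 were measured and 0 called. Cd44 had ratios of 1.58 and 0.36, with wild type not above background on array 1, Il2rb 0.54 and 1.08, and Cd69 1.32 and -0.10. Il2ra cleared the background in no channel. Of 6 natural killer cell markers, 6 were well above background in each knockout channel and 3 in each wild-type channel, with summed log2 levels of 14.41 and 16.44 in the knockout and 12.80 and 13.18 in wild type. Of 9 macrophage markers, 7 and 6 were above background in the knockout and 1 and 2 in wild type, with summed levels of 14.29 and 14.05 against 12.19 and 13.43. In wild type Fcer1g, Klra8, Adgre1, Csf1r and the C1q genes cleared the background on neither array. Which cells gave these marker signals was not tested, nor was the part of other cells or of activated T cells in the results below. In bulk RNA fewer cells of a type and less RNA per cell cannot be told apart.

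No gene of the mitochondrial ribosome changed past the threshold between the genotypes. Mean ratios were small in both subunits: 60 of the 74 measured genes had a mean log2 ratio of knockout over wild type within 0.5 of 0. The gene furthest from 0 was Mrpl2, a protein beside the catalytic centre of the large subunit, at -1.20 ± 0.30 (SD, n = 2). It was also the only member past 2-fold in its mean. The highest mean belonged to Mrpl47, at 0.77 ± 1.13, and rested on array 1 alone.

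For this comparison the log2 ratios after loess normalisation within arrays were averaged over the arrays, and limma tested 9273 genes with Benjamini-Hochberg adjustment and a threshold of 0.05. A probe counted as measured if its knockout channel, or its wild-type channel, cleared the background on array 1 and also on array 2, and a gene was read from its brightest such probe. That left 97 probes and 74 genes, all 46 of the large subunit and 28 of the small. Mrps27 was the gene left out: its probe cleared the background with knockout RNA on array 1 only and with wild-type RNA on array 2 only. Of the 74 genes 0 were called higher, where 1.24% of all genes were, and 0 were called lower, where 0.248% were. At an unadjusted p under 0.05 there was 1 member (Mrpl2) and 904 genes in all. The lowest adjusted p among members was 0.304 (Mrpl2) and the next was 0.709 (Mrpl47), both from limma. Over the 10 other ways of processing the arrays that were tried, 0 members were called. With no filter on dim probes, the scanner software's ratio, scaling between arrays, or trend and robust eBayes, 0 of all genes were called. Those settings could therefore call no member.

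The width of the intervals limits what can be said of any member. With 2 arrays, limma pooled the error over genes into a shared standard error of 0.50 (log2), so the 95% interval of a mean ratio was ± 0.97, or 1.96-fold in either direction, and only a mean of at least 1.68 in size could pass. For Mrpl2 the interval ran from -2.18 to -0.23. For Mrpl53, whose mean of 0.00 was nearest to 0, it ran from -0.97 to 0.98, so a change of almost 2-fold in either direction lies within it. A two-sided exact permutation test over 2 arrays cannot give a p below 0.50.

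**Figure D1:**
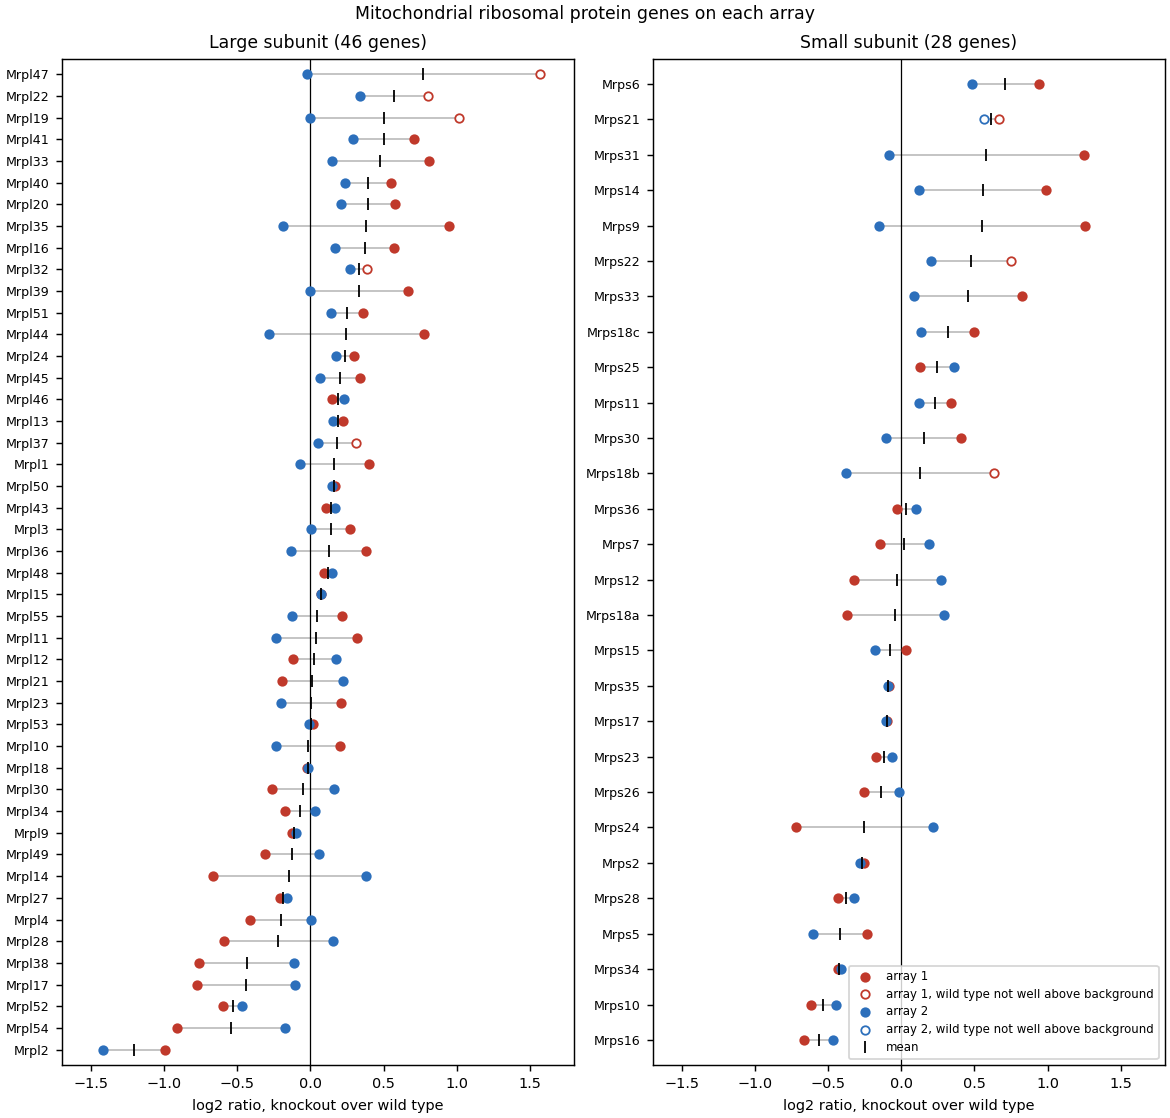
Log2 ratio of knockout over wild type for each of the 74 measured mitochondrial ribosomal protein genes, 46 of the large subunit on the left and 28 of the small on the right, ordered by the mean of the arrays (black tick). Red points are array 1 and blue points array 2, and open points mark a wild-type signal that did not clear the background. Mrpl2 stands apart at the bottom of the large subunit, and the widest lines belong to genes such as Mrpl47, Mrps9 and Mrps31 that are high on array 1 only.

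Array by array, the members' ratios had a smaller SD than those of all genes, a description with no test. On array 1 their ratios ran from -0.99 to 1.57, with an SD over genes of 0.56, where all genes had 1.01. On array 2 they ran from -1.42 to 0.56, with an SD of 0.29 against 0.41. Counting only genes with all 4 channel values above background, which were 66 of the members and 6124 genes in all, the SDs were 0.53 against 0.88 on array 1 and 0.28 against 0.37 on array 2. Past 2-fold higher on array 1 there were 4 of 74 members (Mrpl47, Mrps9, Mrps31 and Mrpl19), whereas 21.1% of all genes were; past 2-fold lower there were 0, against 5.9%. On array 2, 0 members were past 2-fold higher, against 1.96%, and 1 was past 2-fold lower (Mrpl2), against 0.874%. On both arrays at once 0 were past 2-fold higher, against 1.12%, and 0 lower, against 0.226%. The ratios of 14 members (18.9%) differed by less than 0.1 between the arrays, as did those of 8.37% of all genes. Among them, named after their values were seen, were Mrps35 (-0.09 and -0.09), Mrpl15 (0.07 and 0.07) and Mrpl50 (0.17 and 0.15).

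**Figure D2:**
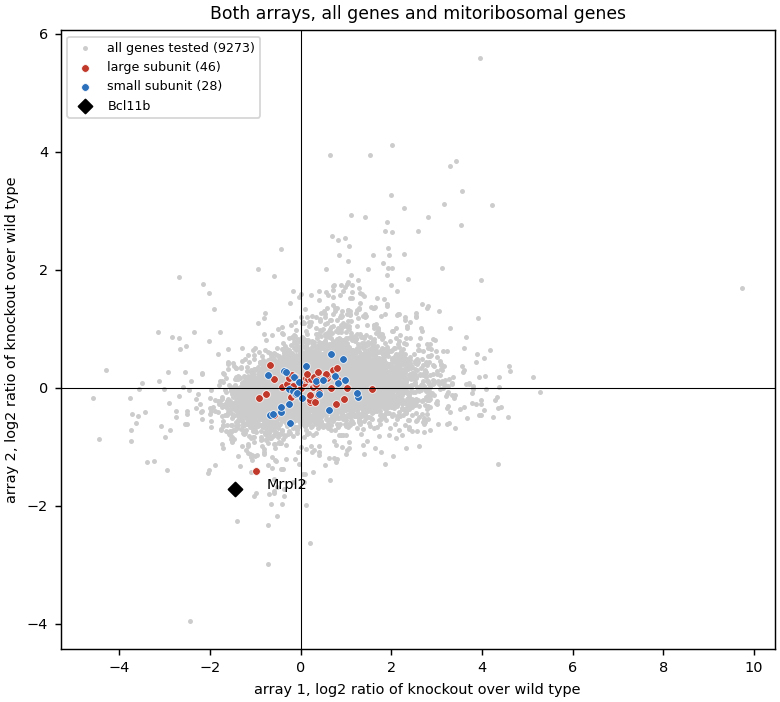
Log2 ratio of knockout over wild type on array 1 (horizontal) against array 2 (vertical) for all 9273 genes tested (grey), the 46 large subunit genes (red), the 28 small subunit genes (blue) and Bcl11b (black diamond). The mitoribosomal genes lie within the centre of the cloud except Mrpl2, at -0.99 and -1.42, which lies near Bcl11b at -1.45 and -1.73.

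Mrpl2 was lower in knockout than in wild-type cells on both arrays. The protein is the counterpart of bacterial L2, which helps to join the subunits and lines the peptidyl transferase centre. Its log2 signal was 11.09 in knockout and 12.09 in wild type on array 1, and 11.22 and 12.64 on array 2. Both knockout values thus lay below both wild-type values, and all 4 were well above background. How many of all genes separate in this way was not counted. The separation therefore cannot be read as particular to Mrpl2 or to the members described below. The ratios were -0.99 and -1.42, a mean 2.30-fold lower signal that did not pass over all genes (adjusted p = 0.304, limma). With median centring of each array instead of loess, array 1 turned to 0.30 and array 2 stayed at -1.15, a mean of -0.43. That setting raised the median of all genes to 0.68, so Mrpl2 still lay below it. The single probe is annotated by the array design to mm8 chr17:46111543-46111695, plus strand, a span longer than the probe's 60 bases. In the RefSeq genes of GRCm38.p6, Mrpl2 starts 140 bases from the start of Klc4, a kinesin light chain gene that runs the other way, so the bases between the starts are upstream of both. This stretch, chr17:46646081-46646220 on the plus strand, is shown because the genes on its sides had different values on array 2.
Mrpl2 and Klc4: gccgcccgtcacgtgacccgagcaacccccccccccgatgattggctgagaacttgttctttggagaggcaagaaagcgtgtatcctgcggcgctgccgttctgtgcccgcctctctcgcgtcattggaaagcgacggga
Klc4 had a ratio of -0.97 on array 1 and 0.16 on array 2 (adjusted p = 0.916, limma), so it lay with Mrpl2 on array 1 and apart from it on array 2. Whether the ratios of Mrpl2 and Klc4 differ was not tested.

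Other large subunit genes with lower signals in the knockout on both arrays had smaller ratios, and none passed. They numbered 8 of 46 with Mrpl2. Mrpl52, a protein found only in mitochondrial ribosomes, had log2 signals of 14.68 in knockout and 15.27 in wild type on array 1, and 13.74 and 14.21 on array 2. Within each array the knockout was the lower, by -0.60 and -0.47, but the knockout value of array 1 lay above the wild-type value of array 2. Its mean was -0.53 ± 0.09 (adjusted p = 0.872, limma). Mrpl54, also confined to mitochondrial ribosomes, had ratios of -0.92 and -0.17 on arrays 1 and 2. The counterpart of bacterial L17 at the exit of the polypeptide tunnel, Mrpl17, was at -0.77 and -0.11, and Mrpl38 at -0.76 and -0.11. The lower signal of these 3 thus came mainly from array 1. Mrpl27, whose bacterial counterpart reaches into the catalytic centre, was at -0.21 and -0.16. With median centring in place of loess, which raised the median of all genes by 0.65 to 0.68, their mean ratios were above 0, but those of Mrpl52 (0.45), Mrpl54 (0.32), Mrpl17 (0.29) and Mrpl38 (0.28) lay below that median and only Mrpl27 (0.69) level with it.

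Large subunit genes with higher signals in the knockout on both arrays numbered 18 of 46, again with none past the threshold. Mrpl22, whose bacterial counterpart lines the polypeptide tunnel, led them by the smaller of the ratios. Its log2 signal was 11.03 in knockout and 10.22 in wild type on array 1, and 10.58 and 10.24 on array 2. Both knockout values lay above both wild-type values, although wild type did not clear the background on array 1. The ratios were 0.81 and 0.34, with a mean of 0.57 ± 0.33 (adjusted p = 0.849, limma). Mrpl41, found only in mitochondrial ribosomes, had signals of 12.06 and 11.35 on array 1 and 12.68 and 12.39 on array 2, with knockout first, so knockout and wild type overlapped between arrays. Its mean was 0.50 ± 0.30 (adjusted p = 0.89). Mrpl32 was at 0.39 and 0.27; its maturation by a protease of the inner membrane is known to gate ribosome assembly. Wild type did not clear the background on array 1 for Mrpl32 either. Mrpl40 was at 0.55 and 0.24, Mrpl20 at 0.58 and 0.21, and Mrpl24, at the tunnel exit, at 0.30 and 0.18. All of these had array 1 as the higher ratio.

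In the small subunit, 10 of 28 genes had lower and 8 had higher signals in the knockout on both arrays, none past the threshold. Mrps16, the counterpart of a bacterial protein of the subunit's body, had the lowest mean. Its log2 signal was 14.39 in knockout and 15.06 in wild type on array 1, and 14.40 and 14.86 on array 2. Both knockout values lay below both wild-type values, by -0.67 and -0.47. The mean was -0.57 ± 0.14 (adjusted p = 0.854, limma). Mrps10, a protein of the head, had signals of 11.62 and 12.24 on array 1 and 11.89 and 12.34 on array 2, knockout first. The genotypes did not overlap here either, and the mean was -0.53 ± 0.12 (adjusted p = 0.871). Mrps34, found only in mitochondrial ribosomes, and Mrps28 repeated closely between the arrays: Mrps34 was at -0.43 and -0.42, and Mrps28 at -0.43 and -0.32. Mrps2 was at -0.25 and -0.28. With median centring the means of these 5 genes were above 0, at 0.24 to 0.60, and still below the median of all genes, 0.68.

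At the upper end of the small subunit stood Mrps6, with log2 signals of 13.52 in knockout and 12.58 in wild type on array 1, and 12.63 and 12.15 on array 2. Within each array the knockout was the higher, by 0.94 and 0.48, and both knockout values lay above both wild-type values. The mean was 0.71 ± 0.32 (adjusted p = 0.754, limma), and a second probe gave 0.64 and 0.61. Mrps6 corresponds to a bacterial protein of the platform, the part of the subunit near the messenger RNA exit. Mrps21, of the same region, was at 9.75 and 9.09 on array 1 and 10.03 and 9.47 on array 2, knockout first, but in wild type it did not clear the background on array 1 or array 2. Set against the lowest wild-type signal that counts as above background, 9.69 on array 1, the knockout signal was 1.19-fold higher over the arrays. This is no firm lower bound, since wild-type signals above that level, such as 10.22 for Mrpl22, also did not clear the background. The mean ratio of 0.62 did not pass (adjusted p = 0.826, limma). Mrps14, Mrps18c, Mrps22, Mrps25 and Mrps11 followed, with ratios between 0.13 and 0.99 on array 1 and between 0.12 and 0.36 on array 2. For Mrps22, wild type did not clear the background on array 1.

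Bases upstream of Mrps16, Mrps21 and Mrpl52 are shown because these members stood at the ends of the lists and hold a short motif known from genes of mitochondrial proteins. Each is the 100 bases before the start in the RefSeq table of GRCm38.p6, 5′ to 3′ on the gene's strand: chr14:20393491-20393590, minus strand, for Mrps16, chr3:95871515-95871614, minus strand, for Mrps21, and chr14:54426809-54426908, plus strand, for Mrpl52. Capitals mark CCGGAAG on either strand, the core bound by factors of the ETS family such as GABP, or in Mrps21 the motif GCGCANGCG on either strand, bound by nuclear respiratory factor Nrf1.
Mrps16: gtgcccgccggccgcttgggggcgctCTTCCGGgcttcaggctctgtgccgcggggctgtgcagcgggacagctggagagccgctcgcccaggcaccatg
Mrps21: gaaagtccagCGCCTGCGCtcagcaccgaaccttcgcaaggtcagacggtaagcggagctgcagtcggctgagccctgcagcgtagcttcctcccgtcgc
Mrpl52: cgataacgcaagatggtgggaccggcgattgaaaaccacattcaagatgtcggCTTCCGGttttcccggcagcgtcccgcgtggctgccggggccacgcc
Mrps16 and Mrpl52, both with the ETS core, had lower signals in the knockout on both arrays, and Mrps21, with the Nrf1 motif in the printed bases, higher ones. Mrps21 also has the ETS core elsewhere in its 300-base window, and Mrps18c, Mrps22 and Mrps33, with the ETS core too, had higher signals on both arrays. A match describes letters and shows no binding.

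Compared as groups, the subunits had medians that differed by about the spread between the arrays. The median log2 ratio of the 46 large subunit genes was 0.21 on array 1 and 0.04 on array 2, and that of the 28 small subunit genes -0.06 and -0.04; all genes had 0.05 and -0.01. The difference of the medians, large minus small, was therefore 0.27 on array 1 and 0.08 on array 2, with an SD of 0.13 between the arrays. The median of the mean ratios was 0.12 for large and -0.00 for small subunit genes, a difference of 0.13, about the size of that SD. It turned to -0.07 when the probes of a gene were averaged. With median centring both medians moved up with those of all genes, to 0.84 and 0.74, since that setting raised the median of all genes by 0.65.

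The split by direction followed the same pattern. Above 0 on both arrays were 18 of 46 large (39.1%) and 8 of 28 small subunit genes (28.6%), where 30.9% of all genes were. These counts include 5 of the 8 members whose wild-type signal did not clear the background on array 1. Such genes could enter only through the knockout channel, and 63.6% of them among all genes were above 0 on both arrays. Below 0 on both were 8 large (17.4%) and 10 small (35.7%), where 30.8% of all genes were. The other 20 large and 10 small subunit genes had opposite signs. Under median centring the counts above 0 became 42 and 24, and those below 0 became 0 and 0. The arrays alone gave 30 and 26 large subunit genes and 13 and 13 small subunit genes above 0. No test of these counts was made, since the members of a subunit are not replicates.

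A few symbols do not match a protein's place in the ribosome. Mrps30 and Mrps18a are known to sit in the large subunit. Mrps30 was at 0.41 and -0.10 on arrays 1 and 2, and Mrps18a at -0.37 and 0.29. Moving both to the large subunit left the medians of the mean ratios at 0.12 and -0.00. Mrps18a, Mrps18b and Mrps18c are paralogues of a single bacterial protein; Mrps18b was at 0.64 and -0.38, with wild type dim on array 1, and Mrps18c at 0.50 and 0.14. The 3 paralogues thus had no direction in common. Mrps36 is known as a subunit of the 2-oxoglutarate dehydrogenase complex and not of the ribosome, and was at -0.03 and 0.10.

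Members were also grouped by whether bacterial ribosomes have the protein and by place in the ribosome. The 29 large subunit proteins with a bacterial counterpart had median ratios of 0.21 and 0.00 on arrays 1 and 2, and the 17 found only in mitochondria 0.17 and 0.06. For the small subunit the values were -0.10 and 0.12 for 15 with a counterpart and -0.03 and -0.07 for the other 13. Of the Mrps18 paralogues, only Mrps18c was counted as having a counterpart. Mrps28 was not counted as having one either, and its placing was not checked, so the split of the small subunit is approximate. The places were chosen after the values were seen. The 4 measured body proteins (Mrps5, Mrps12, Mrps16 and Mrps17) had median ratios of -0.28 and -0.28, with 3 below 0 on both arrays. The 5 platform proteins (Mrps6, Mrps11, Mrps15, Mrps18c and Mrps21) had 0.50 and 0.14, with 4 above 0 on both. The 5 head proteins (Mrps7, Mrps9, Mrps10, Mrps14 and Mrps24) had -0.15 and 0.12, with 1 above and 1 below 0 on both. In the large subunit, the 6 proteins at the tunnel exit had 0.32 and 0.02, with 3 above and 1 below 0 on both. The 3 stalk proteins, Mrpl10, Mrpl11 and Mrpl12, which bring translation factors to the ribosome, all changed sign between the arrays. Of 4 proteins around the peptidyl transferase centre, Mrpl2 and Mrpl27 were below 0 on both arrays and Mrpl3 and Mrpl16 above. None of these genes passed the test.

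The members lie on 17 chromosomes. Those on mm8 chromosome 17, also singled out after the values were seen, were 8 genes: 4 were below 0 on both arrays, among them Mrpl2, Mrps10 and Mrps34, and 0 above on both. Their medians were -0.51 and -0.20, while all 531 genes tested on that chromosome had -0.28 and -0.01.

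Some members were far from 0 on array 1 and of the opposite sign on array 2. Mrpl47, at the tunnel exit, had log2 signals of 10.73 in knockout and 9.16 in wild type on array 1, and 9.96 and 9.98 on array 2. The genotypes differed on array 1 only, where wild type was not well above background, and the ratios were 1.57 and -0.02. Mrps9, in the head, was at 11.96 and 10.71 on array 1 and at 11.20 and 11.36 on array 2, knockout first. Its ratios of 1.26 and -0.16 were measured with all 4 channels above background, as were those of Mrps31 (1.25 and -0.09), Mrpl35 (0.95 and -0.19) and Mrpl44 (0.77 and -0.29), an RNase III relative. Mrps24 and Mrpl14 went the other way, at -0.72 and 0.22 and at -0.67 and 0.38. None of these genes had the same sign on both arrays.

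Of the 74 members, 8 had a wild-type signal that did not clear the background on array 1, and all 8 had a ratio above 0 there, with a median of 0.71. Among all genes tested this held for 1758 of 1770, with a median of 1.21. A gene whose wild-type signal is dim could enter only through its knockout channel. The 66 members with all 4 channel values above background had medians of 0.05 and 0.00, and 21 of them were above and 18 below 0 on both arrays.

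Of the members, 18 had more than 1 measured probe. For 11 of them the probes' mean ratios lay within 0.5 of each other. Mrps6, Mrps2, Mrps18c and Mrps26 had probes less than 0.1 apart. For Mrps17 the brighter probe was at -0.10 and -0.10, while the other gave -3.24 and -0.01, so they disagreed on array 1 only. Mrps5 had 3 measured probes: the brightest gave -0.23 and -0.60, the next 0.84 and -0.10, and the dimmest 1.87 and -0.36. In the last 2, wild type did not clear the background on array 1. All 3 lay below 0 on array 2. Mrps23 (-0.18 and -0.07 against 1.03 and 0.13), Mrps36 (-0.03 and 0.10 against 0.82 and 0.56), Mrpl18 (-0.02 and -0.02 against 0.69 and 0.37), Mrpl35 (0.95 and -0.19 against -0.21 and -0.14) and Mrps33 (0.82 and 0.08 against -0.25 and 0.12) also had probes over 0.5 apart. Averaging the probes turned the sign of Mrpl3, Mrpl18, Mrpl43, Mrps5 and Mrps23.

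**Figure D3:**
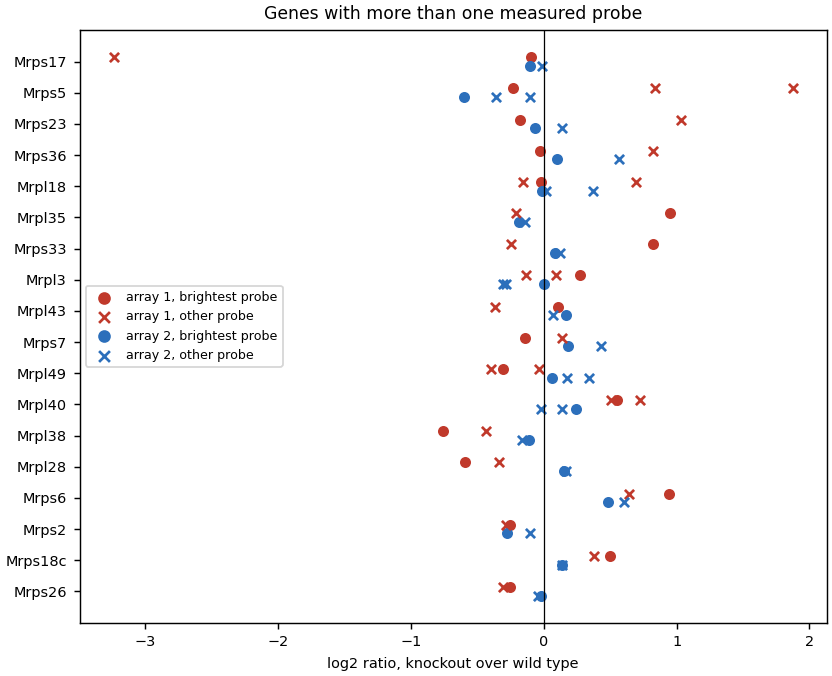
Log2 ratio of knockout over wild type for every measured probe of the 18 genes with more than 1, with the brightest probe as a dot and the others as crosses, array 1 in red and array 2 in blue, and genes ordered by how far their probe means lie apart. The red marks spread far more than the blue, with Mrps17 from -0.10 to -3.24 on array 1.

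Other genes that serve mitochondrial translation were taken from lists, and 1 passed, Tfam, which was lower; of all genes 0.248% were called lower and 1.24% higher. The 7 mitochondrial ribosomal proteins with other symbols, such as Dap3 and Ptcd3, had median ratios of -0.16 and -0.19 on arrays 1 and 2; 0 of 7 were above 0 on both arrays and 4 were below. The lowest was Mrp63, now Mrpl57, at -1.11 and -0.30. The 11 measured of 14 translation factors had medians of 0.31 and -0.06 with 0 called, and the elongation factor Tufm was at -0.12 and -0.06. Among 16 measured of 20 assembly and RNA modification factors 0 were called; Mtg1, a GTPase that acts on the maturing large subunit, was lowest at -0.57 and -0.77. Among 12 measured of 17 tRNA synthetases 0 were called, with medians of -0.45 and -0.11. Lars2, which charges the leucine tRNA, was at -0.93 and 2.01, an opposite sign on each array.

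Tfam packages mitochondrial DNA and starts its transcription. By its brighter probe it was at 10.70 in knockout and 14.32 in wild type on array 1, and 13.09 and 13.69 on array 2. The knockout was far below wild type on array 1 and slightly below on array 2, and the mean ratio of -2.11 ± 2.14 (SD, n = 2) passed (adjusted p = 0.0043, limma). That test used the standard error of 0.50 shared by all genes, so the spread of Tfam between the arrays had no weight in it. The other measured probe of Tfam was at 0.67 and -0.21, and the call held under 3 of the 10 other settings. Some of those settings called 0 of all genes. Tfam was the only call among 7 measured of 11 genes of mitochondrial DNA and transcription. Of 10 nuclear regulators of mitochondrial genes 7 were measured and 0 called. Nrf1 was at -0.43 and -0.08, and Gabpa at 0.56 and 0.22. Yy1 (2.87 and -0.13) and Myc (3.02 and -0.61) were high on array 1 only by their brightest probes, where wild type was not well above background. A second probe of Yy1, with all 4 channels above background, gave 0.65 and 0.05. Of the other probes of Myc, 1 with all 4 channels above background gave -1.06 and -0.29, and 1 gave 1.97 and -0.34 with wild type dim on array 1.

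Beside the machinery stand its products' partners and the ribosome of the cytosol. The 76 nuclear genes of the respiratory chain and ATP synthase had medians of 0.04 and 0.18, with 31 above and 9 below 0 on both arrays and 0 called. The 78 measured of 81 cytosolic ribosomal protein genes had medians of 0.40 and 0.47, with 47 above and 14 below 0 on both arrays, and 2 were called higher, where 1.24% of all genes were: Rps7 (mean 1.74 ± 1.93, with 0.38 on array 2) and Rps27l (2.34 and 1.01). Those calls held under 3 and 5 of the 10 other settings, some of which called 0 of all genes. Here too the spread of each gene between the arrays had no weight in the test. The medians of the mitochondrial ribosomal genes, 0.14 and 0.02, lay nearer to those of all genes than the cytosolic ones did. That difference between lists was not tested.

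**Figure D4:**
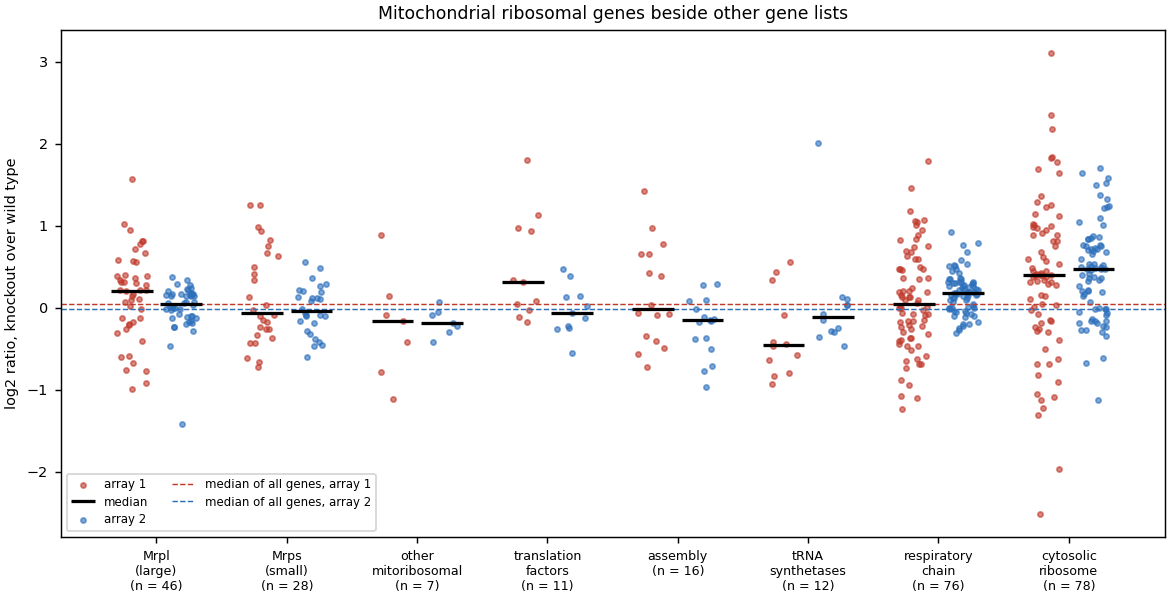
Log2 ratio of knockout over wild type for the genes of each list, array 1 in red and array 2 in blue, with black bars at the list's median and dashed lines at the median of all 9273 genes tested. Both mitoribosomal subunits sit near the dashed lines, at 0.21 and 0.04 for Mrpl and -0.06 and -0.04 for Mrps, while the cytosolic ribosome sits at 0.40 and 0.47.

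Some mitochondrial ribosomal genes share an upstream region with a neighbour on the other strand, which gives pairs to set side by side. In the RefSeq genes of GRCm38.p6, a start was matched for 66 of the members. Of these, 22 start within 400 bases of such a neighbour, making 21 pairs. The share over all genes was not counted. The partner was measured in 14 of these pairs, among them the partner of Mrps27, which was itself not measured. Mrps11 and Mrpl46, which encode a protein of each subunit, start back to back, 41 bases apart. The stretch between them is printed with the regions of Mrps12 and Sars2, of Mrpl43 and Twnk, and of Mrpl49 and Fau. These partners were chosen because they act in mitochondrial translation or DNA replication or, for Fau, because the pair's values lay furthest apart. The stretches are chr7:78783090-78783130 on the plus strand, chr7:28741822-28741967 on the minus strand, chr19:45006443-45006557 on the minus strand and chr19:6057756-6057946 on the minus strand, with CCGGAAG in capitals.
Mrps11 and Mrpl46: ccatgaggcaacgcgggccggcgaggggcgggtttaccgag
Mrps12 and Sars2: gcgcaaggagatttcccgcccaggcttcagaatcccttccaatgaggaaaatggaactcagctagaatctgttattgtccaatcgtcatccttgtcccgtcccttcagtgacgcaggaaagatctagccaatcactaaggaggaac
Mrpl43 and Twnk: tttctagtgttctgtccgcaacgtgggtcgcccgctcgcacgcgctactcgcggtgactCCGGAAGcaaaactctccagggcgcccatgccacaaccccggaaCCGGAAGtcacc
Mrpl49 and Fau: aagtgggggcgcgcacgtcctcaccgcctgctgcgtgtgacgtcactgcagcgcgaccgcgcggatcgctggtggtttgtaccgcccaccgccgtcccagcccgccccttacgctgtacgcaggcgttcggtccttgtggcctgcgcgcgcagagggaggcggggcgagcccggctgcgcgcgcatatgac

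Mrps11 and Mrpl46 had like values. Mrps11, on the platform, had log2 signals of 10.52 in knockout and 10.19 in wild type on array 1, and 10.17 and 10.05 on array 2. Mrpl46 had 11.32 and 11.17 on array 1, and 11.45 and 11.22 on array 2. All 4 ratios were above 0, at 0.34 and 0.12 for Mrps11 and 0.15 and 0.23 for Mrpl46, and neither gene passed. Mrps12, in the decoding region, and Sars2, the seryl-tRNA synthetase, changed sign together between the arrays, at -0.33 and 0.27 for Mrps12 and -0.47 and 0.03 for Sars2. Mrpl43 was at 0.11 and 0.17, and Twnk, the mitochondrial DNA helicase, was not measured. Among the pairs with both genes measured, only Mrpl27 and Eme1 also had the same signs as each other on both arrays. In the other such pairs the signs differed on at least 1 array, as for Mrpl37 (0.31 and 0.05) and Cyb5rl (-1.14 and -0.18).

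Mrpl49 and Fau lay apart. Fau encodes a ubiquitin-like protein fused to a protein of the small cytosolic ribosomal subunit and, like Mrpl49, was named here after its values were seen. Its log2 signal was 17.97 in knockout and 16.08 in wild type on array 1, and 18.39 and 16.49 on array 2. The ratios of 1.90 and 1.90 repeated and passed (adjusted p = 0.0157, limma). Of the 10 other settings 6 kept the call, and the rest called 0 of all genes. Mrpl49, 191 bases away on the other strand, was at 12.40 and 12.70 on array 1 and 11.96 and 11.89 on array 2, knockout first, with ratios of -0.31 and 0.06 (adjusted p = 0.972). Fau was thus higher in the knockout on both arrays while Mrpl49 lay near 0. Whether the ratios of this pair differ was not tested.

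Motifs for regulators of mitochondrial genes were then searched in the 300 bases from 250 before to 50 after each start, on both strands. RefSeq windows were matched for 66 of the 75 members and for 27025 genes in all. GCGCANGCG, bound by Nrf1, was in 15 of 66 members (22.7%), 11 large and 4 small subunit genes, and in 7.03% of all genes with a window. CCGGAAG, the ETS core, was in 24 (36.4%), against 9.93%, and AANATGGCG, bound by Yy1, in 9 (13.6%), against 2.76%. The end of CCGGAAG can form the start of AANATGGCG, and such overlaps count for both. Any of the motifs was in 40 of 66 members (60.6%) and in 17.2% of all genes with a window. The median ratios on arrays 1 and 2 were 0.34 and -0.0056 for the 15 measured members with the Nrf1 motif and 0.16 and 0.07 for 50 without. They were 0.02 and 0.08 for 23 with the ETS core and 0.26 and 0.06 for 42 without, and 0.32 and -0.02 for 8 with the Yy1 motif and 0.17 and 0.07 for 57 without. The order of members with and without a motif thus changed with the motif and the array. No letters of these motifs in a window says only that they are not in these bases.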

How the data were processed

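RNA of sorted cells went through linear amplification (Agilent) and chemical labelling (Kreatech ULS), as given per the labels' protocols. The submitters' processing notes name Agilent Feature Extraction 9.5.3.1 for the scans. Scanner files as deposited hold mean signals and local backgrounds as linear intensity values with no normalisation, and log10 ratios made by the scanner software, per the file headers. The deposited value table holds the same log10 ratios, within 0.005 at every spot.

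Intensities were processed with limma 3.58.1 in R 4.3.3: normexp (offset 50), loess within arrays with control and flagged spots at weight 0, spots averaged per probe, and channel levels after Aquantile normalisation. lmFit and eBayes tested the mean log2 ratio against 0. Errors are SDs between the arrays. Probe positions are on mm8, as the array design in the files gives them. Members kept the names in the files; of 41174 probes, 24375 were otherwise named by accession, 6301 by symbol and 2426 by an older symbol in the RefSeq table of GRCm38.p6, and 8072 kept the file's name. The fit was tested on simulated ratios.

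Named members were up to 6 highest and 6 lowest per subunit whose arrays had like signs, with both channels above background on at least 1 array, ranked by the smaller ratio; up to 4 per subunit with opposite signs; up to 4 per subunit with the widest spread of probes; and Mrps30, Mrps18a and Mrps36. Other members named, such as Mrps21 and Mrpl49, were chosen after their values were seen. The members, lists and rules were chosen with earlier results of these data known. Alternatives changed the background correction, normalisation, filter, choice of probe, naming and eBayes prior, or left out an array.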

Additional observations from a re-analysis of the deposited data

How the results depend on the processing

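No member was called under any of 10 other settings, and 369 of 395 values of the 40 named members kept their direction. With no filter, the scanner ratio, scaling, or trend and robust eBayes, 0 of all genes were called, so no call could hold there. Settings that changed only the filter, naming or eBayes prior reused the main ratios, so directions were largely fixed there in advance. With each array centred on its median, the median of all genes rose by 0.65, the large and small subunit medians were 0.84 and 0.74, 42 and 24 genes were above 0 on both arrays, and 0 and 0 below. That setting also turned the means of Mrpl14 (0.81), Mrpl17 (0.29), Mrpl18 (0.81), Mrpl27 (0.69), Mrpl38 (0.28), Mrpl52 (0.45), Mrpl54 (0.32), Mrps2 (0.24), Mrps5 (0.38), Mrps10 (0.29), Mrps16 (0.45), Mrps17 (0.77), Mrps18a (0.72), Mrps23 (0.46), Mrps24 (0.64), Mrps28 (0.55) and Mrps34 (0.60). Averaging probes turned Mrpl3 (-0.059), Mrpl18 (0.15), Mrpl43 (-0.0045), Mrps5 (0.24) and Mrps23 (0.23), the scanner software's ratio turned Mrps23 (0.019), Mrps30 (-0.010) and Mrps36 (-0.077), and scaling between arrays turned Mrps18a (0.042). The small subunit median was 0.020 with no filter, -0.040 with the strict filter, -0.043 with the scanner ratio, 0.044 with scaling and 0.15 with probes averaged, where large minus small was -0.065. From single arrays it was -0.059 to -0.041, the difference 0.085 to 0.27, large subunit genes above 0 numbered 26 to 30 and below 0 16 to 20, and small subunit genes above 0 13 to 13. Among the pathway lists, the call of Tfam became 0 calls with no filter, no background correction, median centring, the scanner ratio, scaling, probes averaged, or trend and robust eBayes. The causes were not tested. The test of the ratios was itself paired, since each ratio sets a knockout against a wild-type sample on its array.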
